A study of Rattus norvegicus with 6 samples.

Results

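The genes described here encode the proteins of the cytosolic ribosome. They were taken from the deposited read count table by name: every row whose symbol is Rpl or Rps followed by a number and at most a single letter, together with Rplp0, Rplp1, Rplp2 and Rpsa. This rule found 80 of the 30562 rows, 48 for the large subunit and 32 for the small subunit, under 74 different symbols. Counts were available for 6 mammary tumors of Fischer 344 rats, each tumor a single library. Tumors 102, 107 and 116 arose in 3 older rats, and tumors 157, 158 and 167 in 3 younger ones. Older rats came at an age of 19 to 21 months from the rodent colonies of the National Institutes of Aging. Younger rats came at 6 to 8 weeks from Envigo, so source and age cannot be told apart. These are ages at arrival, and the rats were housed before treatment, so they were older when treated. All rats, in both groups, received a 50 mg pellet of MPA (a progestin) that releases for 90 days, and 65 mg/kg of the carcinogen DMBA by gavage. No library of untreated mammary gland was used here. The younger tumors were all those that formed in that group, whereas the older ones were those with enough tissue. The comparison asks whether tumors that arose in an aged host differ from those of young hosts in the RNA of the translation machinery.

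A ribosome is built from ribosomal RNA and a large set of proteins, nearly all of them present as a single copy per particle, and growing cells spend much of their transcription and translation on it. Messenger RNAs of ribosomal proteins begin with a cytosine and a run of pyrimidines, the 5′ terminal oligopyrimidine (TOP) tract. Through it the growth kinase mTORC1 and the RNA-binding protein LARP1 control their translation and stability together with those of several translation factors. Some ribosomal proteins act outside the ribosome: free Rpl5 and Rpl11 bind MDM2 and thereby stabilise p53, and a few genes have a second, tissue-restricted copy. Rodent genomes carry many processed pseudogenes of these genes, and reads that match several copies equally well are a known limit of counting them.

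The TOP tract is the sequence feature for which these messages are known. The stretches around annotated starts are therefore shown for named members of both subunits. RefSeq (assembly GRCr8) gave promoter entries for 58 of the 74 symbols, with 2 starts for 1 of them, hence 59 windows of 300 bases. Each stretch holds 30 bases, 15 before the annotated start and 15 from it on, 5′ to 3′ on the strand of the gene. Capitals mark a run that begins with C at the start base and goes on with at least 4 more bases that are each C or T.
Rplp0: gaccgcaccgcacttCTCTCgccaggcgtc
Rplp1: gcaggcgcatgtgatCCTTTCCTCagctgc
Rpl10: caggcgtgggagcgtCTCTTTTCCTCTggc
Rpl22: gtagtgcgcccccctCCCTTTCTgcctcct
Rps27: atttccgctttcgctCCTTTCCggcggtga
Rps15: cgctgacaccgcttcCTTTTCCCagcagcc
Rpl13a: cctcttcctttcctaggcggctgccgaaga
Rps6: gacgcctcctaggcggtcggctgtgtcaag
Rps27l: gtttattcatttgtcattatttgtggtgtc
On assembly GRCr8 the stretches lie at chr12:46718376-46718405 (minus strand, Rplp0), chr8:71290858-71290887 (minus, Rplp1), chrX:157205835-157205864 (plus, Rpl10), chr5:168117946-168117975 (plus, Rpl22), chr2:177964592-177964621 (minus, Rps27) and chr7:10068101-10068130 (minus, Rps15). Those without a run at the start base lie at chr1:104748899-104748928 (minus, Rpl13a), chr5:106420526-106420555 (minus, Rps6) and chr8:76443643-76443672 (plus, Rps27l). Such a run stood at the start base in 21 of the 59 member windows (35.6%), against 2.63% of all 33469 windows in the table. Allowing the run to begin within 5 bases of the start, 61.0% of member windows and 17.0% of all windows held it. The ETS core CCGGAAG, searched on both strands over the whole window, was in 28.8% of member windows and 8.75% of all. The E-box CACGTG (8.47% against 6.42%), the YY1 core AAGATGGC (8.47% against 3.17%) and the TATA box TATAAA (11.9% against 14.2%), searched in the same way, were in few of either. These matches describe the annotated windows, and annotated starts may differ from the starts used in these tumors.

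Library totals ran from 3508571 to 6525830 counts, so 3 counts, taken as the floor, correspond to between 0.516 and 0.99 CPM (counts scaled to a common library size after TMM adjustment), by counting error alone. The labels call the RNA polyA, whereas the protocol describes depletion of ribosomal RNA. Of the luminal epithelial markers, 5 of 6 were in the table, with a summed level of 1122 to 1208 CPM in older and 1458 to 1729 CPM in younger tumors. Macrophage markers summed to 119.4 to 264 CPM in older and 56.8 to 106 CPM in younger tumors, and T cell markers to 14.5 to 77.9 CPM and 4.22 to 7.91 CPM. Adipocyte markers ranged from 19.4 to 169 CPM against 5.94 to 17.5 CPM, fibroblast markers from 69.3 to 718 CPM against 71.5 to 563 CPM, and endothelial markers from 60.0 to 280.4 CPM against 47.0 to 193 CPM. Myoepithelial markers ranged from 399 to 2351 CPM against 1639.7 to 2419 CPM, skeletal muscle markers from 6.58 to 64.5 CPM against 18.0 to 29.4 CPM, erythroid markers from 29.4 to 47.4 CPM against 57.7 to 89.2 CPM, and B cell markers from 0.330 to 0.774 CPM against 1.06 to 1.55 CPM, with 2 of 4 B cell markers (Ms4a1 and Cd79b) at 0 in all tumors. Some of these sums rested mostly on single genes. Of the adipocyte markers, Lep gave 24.1 of 32.5 CPM in tumor 107 and Fabp4 129 of 169 CPM in tumor 102. Of the T cell markers, Cd8a gave 72.0 of 77.9 CPM in tumor 107. The part of this cell mixture in the values below was not tested. In tissue RNA, fewer cells of a type and less RNA per cell cannot be told apart.

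Not every symbol stood for a row with enough counts to test. Of the 80 rows, 64 passed the filter on low counts and 16 did not, and the gap between them was wide, from 44 counts summed over the 6 tumors in the highest row that failed to 332 in the lowest row that passed. In 6 cases (Rpl21, Rpl22, Rpl30, Rpl35a, Rps6 and Rps13) the row that failed was the second row of a symbol whose other row passed; values below are those of the row with more counts. Rpl3l, a copy of Rpl3 known from striated muscle, had 0 to 4 counts per tumor. Rpl10l and Rpl39l, copies of Rpl10 and Rpl39 known from testis, had 0 to 6 and 0 to 5 counts, at or near the floor. Among the others, Rpl8, Rpl9, Rpl38, Rpl39, Rps10 and Rps20 are genes of the core ribosome, and these 6 had between 2 and 44 counts over all 6 tumors. Rows for Rpl7, Rpl27a, Rpl36, Rpl37a, Rpl41, Rps18 and Rps26 were not found by symbol, although the RefSeq list holds all 7, and these genes were not analysed here.

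For each of these 6 core genes, a row named after a copy held more counts than the row with the gene symbol. These rows were picked after their values had been seen. Rpl9 had 4, 0 and 1 counts in older tumors (102, 107 and 116) and 0 in each younger tumor. The row Rpl9-ps30, which RefSeq lists as a transcribed pseudogene, had 1778, 1113 and 2009 counts in older and 1485, 1307 and 2549 counts in younger tumors (157, 158 and 167). Rps20 had 1 to 6 counts per tumor, and Rps20-ps10, listed as a pseudogene, 358 to 888. Rps10 had 1 to 14, and Rps10l1 216 to 630. Rpl8-ps7 (125 to 448 counts), Rpl38-ps9 (107 to 267) and Rpl39-ps13 (22 to 103) stood in the same relation to Rpl8 (1 to 6), Rpl38 (0 to 2) and Rpl39 (0 to 1). In each of the 6 pairs every tumor had more counts in the row of the copy. In all, 89 rows carry the name of a ribosomal protein gene outside the rule, and they held 26069 counts against 460181 in the member rows. RefSeq names 815 pseudogenes after 70 of the 74 symbols, with a median of 11 and at most 36 (Rps2). Whether reads were assigned to the wrong copy or rows were given the wrong name was not tested, and the same doubt holds for every member, since how reads matching several copies were counted is not given in the sources used here.

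**Figure D1:**
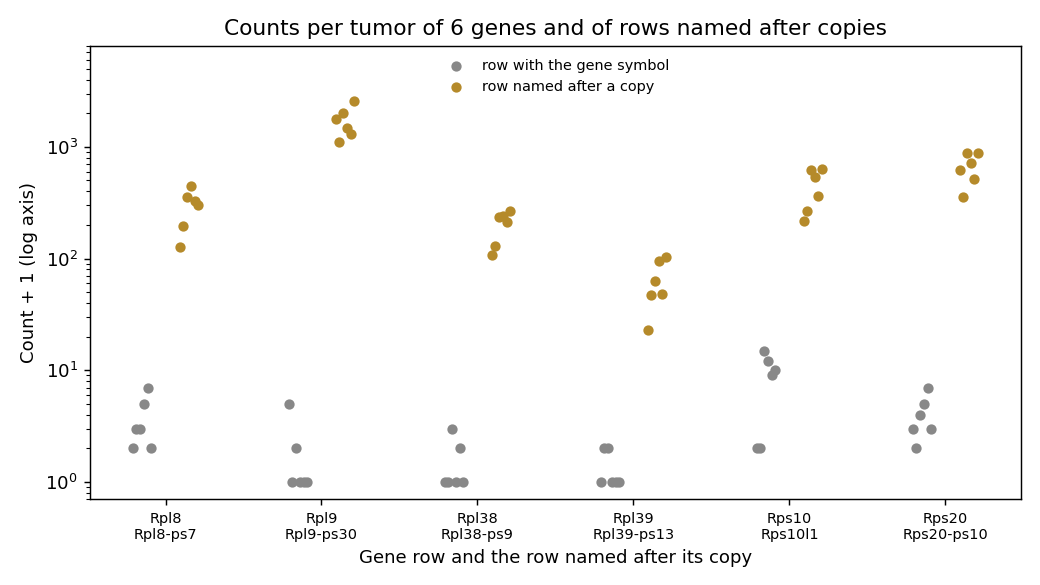
Read counts plus 1, on a log axis, for 6 ribosomal protein genes (grey) and for the rows named after a copy of each (gold), 1 point per tumor. Rows with the gene symbol stay at or below 14 counts in every tumor, whereas the rows named after copies hold between 22 and 2549 counts.

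Ribosomal protein genes took a share of the library that varied widely between tumors and overlapped between age groups. Large subunit genes held 0.743%, 0.666% and 1.24% of the counts in older tumors 102, 107 and 116, and 1.01%, 0.602% and 1.62% in younger tumors 157, 158 and 167. Small subunit genes held 0.621%, 0.448% and 0.895% in the same older tumors and 0.691%, 0.418% and 1.16% in the younger ones. The lowest and the highest shares of both subunits were in the younger group, in tumors 158 and 167, and the older tumors lay between them. The mean was 0.884% ± 0.314 in older against 1.08% ± 0.512 in younger tumors for the large subunit, and 0.655% ± 0.226 against 0.755% ± 0.373 for the small subunit (SD, n = 3 each). The differences of -0.193 and -0.101 percentage points were smaller than the spread within either group. Wilson 95% intervals of single shares, such as 1.61% to 1.63% for the large subunit in tumor 167, were far narrower than the distance between tumors, and they cover counting error only. Within the younger group the highest share of both subunits together exceeded the lowest 2.72 times, and within the older group 1.92 times.

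**Figure D2:**
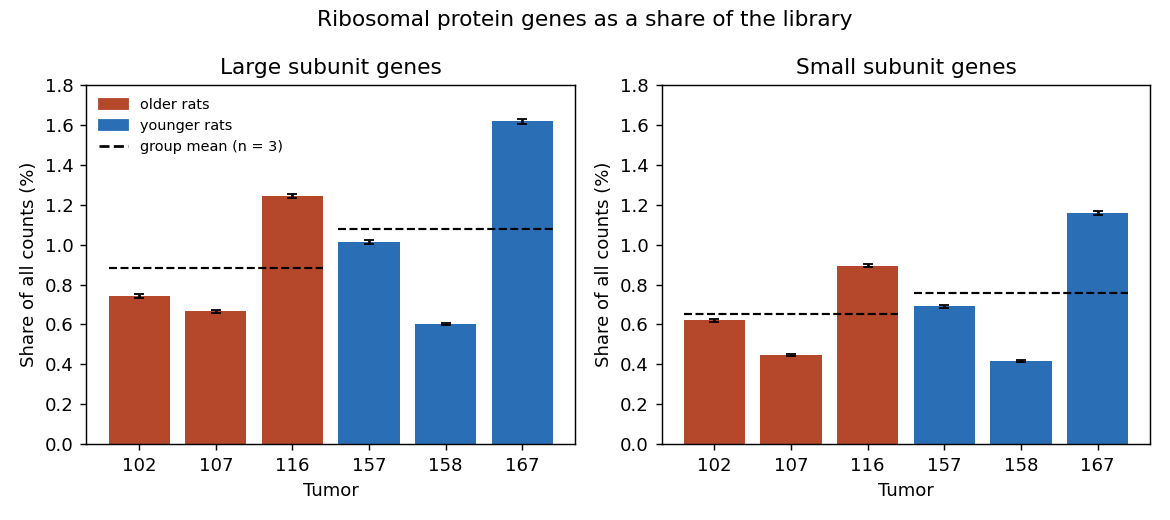
Summed counts of all large subunit rows (left) and small subunit rows (right) as a percentage of all counts of each tumor. Bars are single tumors with Wilson 95% intervals and dashed lines are group means. Tumors 158 and 167, both from younger rats, hold the lowest and the highest shares, and the older tumors lie between.

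The share stood in nearly the opposite order to that of the milk protein genes. The caseins Csn1s1, Csn2 and Csn3 took 13.0%, 11.0% and 4.22% of the counts in older tumors 102, 107 and 116, and 2.80%, 14.3% and 0.594% in younger tumors 157, 158 and 167. Tumors 102, 107 and 158, with the highest casein shares, had the 3 lowest ribosomal protein shares, 1.36%, 1.11% and 1.02% for both subunits together. With the 10 most abundant other genes removed from the totals, the shares were 1.73%, 1.34% and 2.41% in older and 1.86%, 1.27% and 3.05% in younger tumors, in the same order of tumors. The differences between tumors were thus also seen when the counts of those 10 genes were left out. Whether the content of milk-producing cells plays a part was not tested.

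For the comparison by age, the 14060 genes with enough counts entered the quasi-likelihood F test of edgeR, with libraries scaled by TMM, and a gene was called at a Benjamini-Hochberg adjusted p under 0.05. None of the 64 ribosomal protein genes was called, 0 of 37 for the large and 0 of 27 for the small subunit, where the test called 0% of all genes. The smallest adjusted p among them was 0.796 with edgeR, 0.860 with DESeq2 and 0.857 with limma-voom. At an unadjusted p under 0.05, 0 members passed with each of these 3 tools, against 8.55% of all genes tested with edgeR. DESeq2 called 2.47% of all genes and 0 members. In no member did the 3 older tumors all lie on 1 side of the 3 younger ones, whereas this held for 12.2% of all genes tested.

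The log2 fold changes, older against younger, were small and mostly below 0. Their median was -0.23 for the large subunit and -0.13 for the small subunit, against 0.00 over all genes tested. They were negative for 36 of 37 large and 21 of 27 small subunit genes, where 50.4% of all genes were lower in older tumors by sign alone. This direction rested on tumor 167. Without it 16 of the 64 members were lower and 48 higher in older tumors, and the medians were 0.09 for the large and 0.20 for the small subunit. Without older tumor 107, 32 were lower and 32 higher, and the small subunit median was 0.07. Standard errors ran from 0.25 to 0.47 on the log2 scale. The 95% interval of the fold change lay within 2-fold in both directions for 25 of the 64 members (35.9% of all genes), and over the members interval bounds ran from -1.49 to 1.25. A p-value that misses the threshold therefore does not show equal levels in the 3 older and 3 younger tumors.

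**Figure D3:**
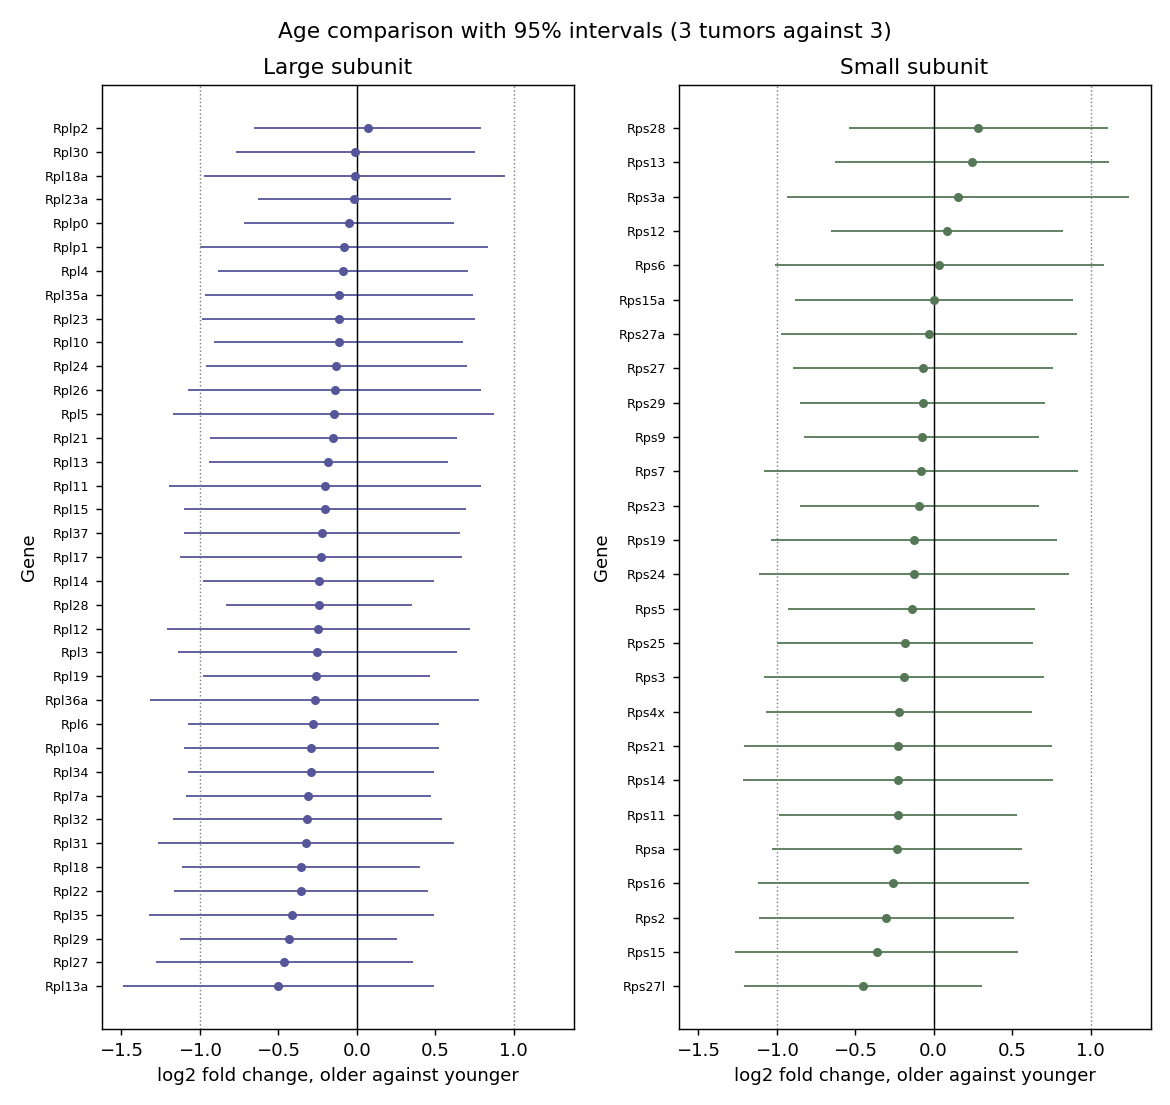
Log2 fold change of tested ribosomal protein genes, older against younger tumors, with its 95% interval from edgeR (3 tumors per group), large subunit left and small subunit right, sorted by value. Dotted lines mark 2-fold lower and higher. Every interval shown spans 0, and points run from -0.50 (Rpl13a) to 0.28 (Rps28).

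Among the stalk proteins, which recruit translation factors to the large subunit, Rplp0 had 379, 335 and 499 CPM in older tumors 102, 107 and 116, and 419, 333 and 505 CPM in younger tumors 157, 158 and 167. The means were 404 ± 85.1 and 419 ± 86.2 CPM (SD, n = 3 each), a log2 fold change of -0.05 ± 0.29 (SE, 95% interval -0.72 to 0.62, edgeR adjusted p = 0.982). Rplp0 had the smallest ratio of highest to lowest tumor among the 64 members, 1.52. Rplp1 had 93.0, 48.5 and 108 CPM in older and 76.8, 58.7 and 128 CPM in younger tumors, and followed the common order with tumor 107 lowest and tumor 167 highest. Rplp2 had 75.5, 46.1 and 98.1 CPM in older and 81.8, 63.1 and 64.6 CPM in younger tumors, and was the only stalk gene with tumor 167 below the mean of the 6 tumors.

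Rpl5 and Rpl11, the partners of MDM2, moved together between tumors. Rpl5 had 547, 379.7 and 665 CPM in older and 471, 332 and 960.2 CPM in younger tumors, a log2 fold change of -0.15 ± 0.44 (SE, edgeR adjusted p = 0.967). Rpl11 had 317, 166 and 328 CPM in older and 259, 188 and 485 CPM in younger tumors, a log2 fold change of -0.20 ± 0.43 (SE, edgeR adjusted p = 0.948). In both, tumor 167 was highest by a wide margin and the other 2 younger tumors lay within or below the older range.

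Rpl3, at the peptidyl transferase centre, had 434, 306 and 544 CPM in older and 514, 306 and 710.4 CPM in younger tumors. Rpl10, which joins the large subunit last, had 452, 334 and 571 CPM in older and 405, 389 and 678 CPM in younger tumors. Rpl22, a protein that normal ribosomes can do without and that also binds RNA elsewhere, had 16.8, 17.6 and 24.4 CPM in older and 27.3, 15.8 and 32.3 CPM in younger tumors. Their log2 fold changes were -0.25 (Rpl3), -0.12 (Rpl10) and -0.36 (Rpl22), with standard errors of 0.38, 0.34 and 0.35. In all 3 genes the age groups overlapped.

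The large subunit genes with the smallest p-values were Rpl29, Rpl27 and Rpl13a. Rpl29 had 119.7, 135 and 199 CPM in older and 199.8, 159.7 and 255 CPM in younger tumors, a log2 fold change of -0.43 ± 0.30 (SE, edgeR adjusted p = 0.796). Rpl27 had 135, 181 and 221 CPM in older and 219, 164 and 359 CPM in younger tumors, a log2 fold change of -0.46 ± 0.35 (SE, edgeR adjusted p = 0.825). Rpl13a, which in other settings leaves the ribosome to silence inflammatory messages, had 128, 174 and 303 CPM in older and 254, 182 and 420.4 CPM in younger tumors, a log2 fold change of -0.50 ± 0.43 (SE, edgeR adjusted p = 0.852). It also had the widest spread of the 64 members, 3.28 times from tumor 102 to tumor 167. In these 3 genes tumor 102 was the lowest of all tumors.

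In the small subunit, Rps6, the phosphorylation target of the S6 kinases downstream of mTORC1, had 681, 295 and 517 CPM in older and 409, 291 and 754 CPM in younger tumors. Its log2 fold change was 0.04 ± 0.45 (SE, edgeR adjusted p = 0.992). Rpsa, also known as a laminin receptor, had 611, 449 and 624 CPM in older and 610.1, 449 and 919 CPM in younger tumors. Rps4x, carried on the X chromosome, had 311, 229 and 407 CPM in older and 332, 244 and 525 CPM in younger tumors. Their log2 fold changes were -0.23 (Rpsa) and -0.22 (Rps4x), with standard errors of 0.34 and 0.37, and in both genes tumor 107 of the older group and tumor 158 of the younger group were the low ones.

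Rps14 and Rps19 are genes whose loss in humans impairs red cell formation. Rps14 had 166, 118 and 296 CPM in older and 198, 152 and 330.4 CPM in younger tumors. Rps19 had 98.6, 92.6 and 212 CPM in older and 147, 104 and 189.5 CPM in younger tumors, and was 1 of the 5 members that were highest in tumor 116. Log2 fold changes were -0.23 for Rps14 and -0.12 for Rps19 (standard errors 0.43 and 0.39). Rps27a, made as a fusion with ubiquitin, had 216, 113 and 199 CPM in older and 154, 109 and 277 CPM in younger tumors, a log2 fold change of -0.03 (standard error 0.41).

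Rps27l and Rps15 were among the small subunit genes with the smallest p-values. Rps15 had 148, 139 and 232 CPM in older and 181, 142 and 344 CPM in younger tumors, a log2 fold change of -0.36 ± 0.39 (SE, edgeR adjusted p = 0.897). Its groups overlapped. Rps27l is a copy of Rps27 that p53 induces. It had 26.7, 18.0 and 36.8 CPM in older and 31.3, 35.7 and 44.6 CPM in younger tumors, a log2 fold change of -0.45 ± 0.33 (SE, edgeR adjusted p = 0.812), with only tumor 116 inside the younger range. Rps27 itself had 139, 98.8 and 187 CPM in older and 128, 104 and 214 CPM in younger tumors, a log2 fold change of -0.07 ± 0.36 (SE, edgeR adjusted p = 0.982). The difference between the fold changes of the 2 genes was not tested. Of 9 other p53 target genes, edgeR called 0 (3 at an unadjusted p under 0.05), DESeq2 called 3 and limma-voom 0. All 9 had edgeR log2 fold changes below 0, with a median of -0.60, and in 4 every older tumor was below every younger one, as in 5.58% of all genes tested. The cell cycle inhibitor Cdkn1a was among these 4, at 12.9, 9.66 and 26.7 CPM in older and 65.8, 68.1 and 34.9 CPM in younger tumors.

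The members stood in a common order across the tumors, which crossed the age groups. Tumor 167 was highest for 57 of the 64 genes, 35 large and 22 small subunit genes, where it was highest for 18.7% of all genes tested. Tumor 107 was lowest for 37 members and tumor 158 for 18, where they were lowest for 13.1% and 16.9% of all genes. Tumors 116 and 157 were lowest for 0 members. Averaged over the members, the level in a tumor stood below the mean of the 6 tumors by a log2 CPM deviation of -0.07 in tumor 102, -0.47 in tumor 107, -0.02 in tumor 157 and -0.36 in tumor 158, and above it by 0.31 in tumor 116 and 0.61 in tumor 167. These 6 average deviations accounted for 77.9% of the variance between tumors over all members. This share was also high in short lists, at 90.5% for the 4 fibroblast markers tested and 77.1% for 4 myoepithelial markers. Short lists reach high shares more easily, since each gene is a larger part of its own average. It was 61.6% for 15 translation factors and other TOP messages. For 72 mitochondrial ribosomal protein genes it was 36.6%, and for 29 ribosome biogenesis genes 33.6%. These longer lists had lower shares than the members, but many of their genes had fewer counts, and counting error lowers the share. The lists were not matched for level. Over all genes tested the share was 0.127%. TMM scaling holds the average deviation over all genes near 0 in every tumor, so that value is no background for the members. At the median, the highest tumor of a member exceeded its lowest 2.30 times, against 2.33 times over all genes tested. The latter include genes with fewer counts, and no set of genes of like level was compared. The 64 values of a tumor come from a single library and share its depth and scaling, so they do not count as replicates of that tumor.

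**Figure D4:**
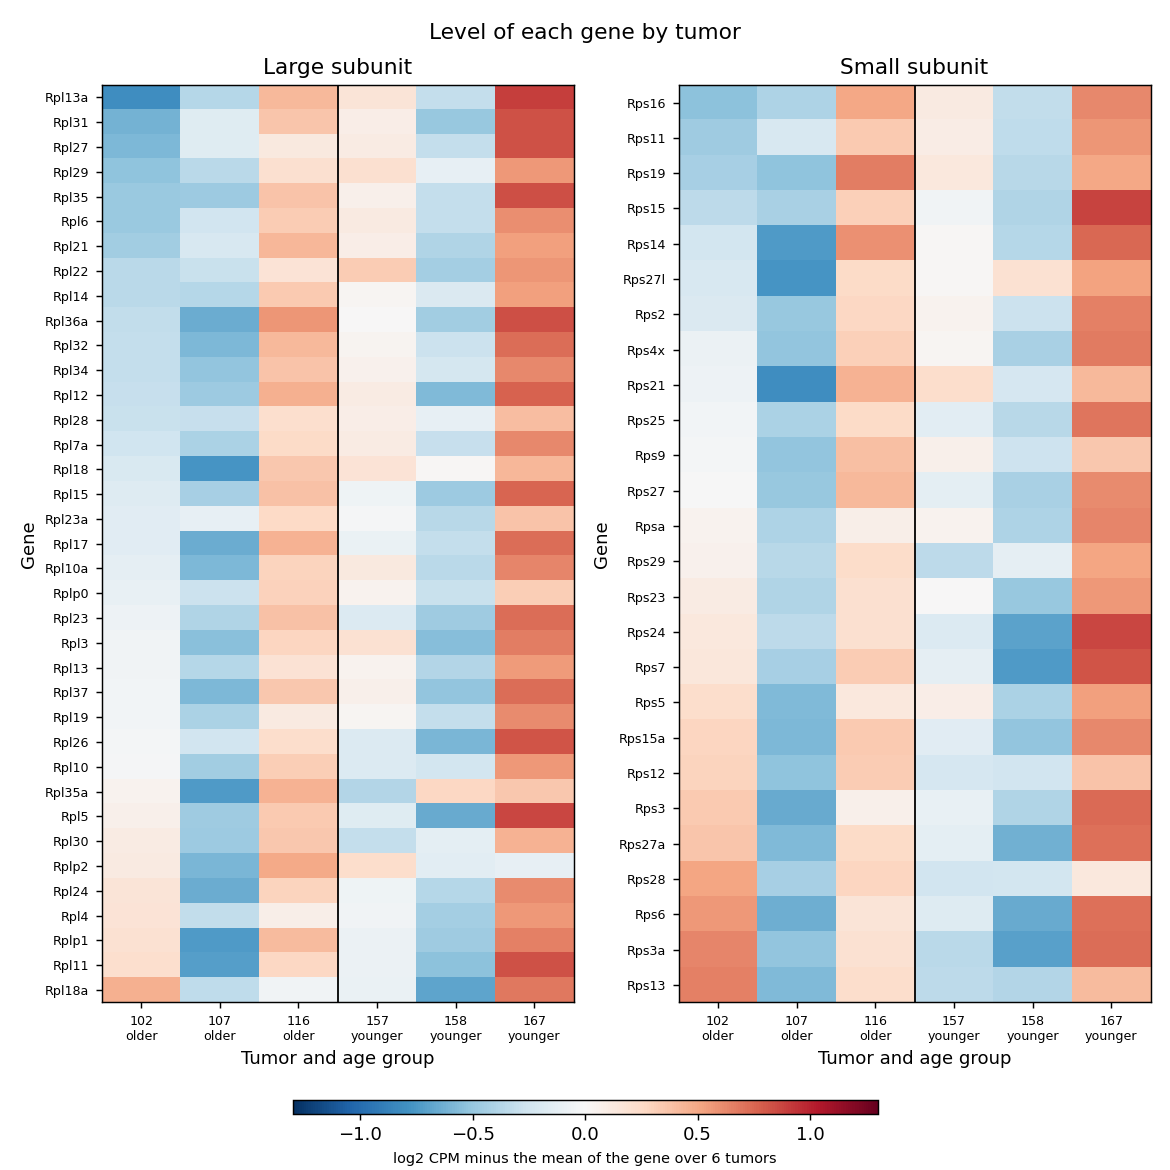
Log2 CPM of tested ribosomal protein genes in each tumor, as the difference from the mean of that gene over the 6 tumors (red higher, blue lower), with large subunit genes left and small subunit genes right, sorted by the departure of tumor 102 from the average member. Tumor 167 is red for nearly all genes and tumors 107 and 158 are blue for nearly all, and the line in the middle separates older (left) from younger tumors.

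Tumor 102 departed from this shared order. After removal of the average deviation of the members, the values left in tumor 102 had an SD of 0.32 over the 64 genes, against 0.13 to 0.19 in the other tumors. This tumor also stood apart over the whole library, being lowest for 27.3% and highest for 26.0% of all genes tested, where no other tumor was lowest for more than 18.2% or highest for more than 18.7%. Large subunit genes were lower there (mean deviation -0.16) and small subunit genes higher (0.05), a gap of 0.21 on the log2 scale. The other tumors had gaps between -0.08 and -0.01. Deviations are taken from the mean over the tumors, so the gap in tumor 102 itself pushes the others below 0. Counts of large over small subunit genes gave a ratio of 1.196 in tumor 102 and between 1.39 and 1.49 in the other 5 tumors. Rps3a, a small subunit protein, had 1077 CPM in tumor 102 and 484 and 792 CPM in the other older tumors, against 544, 424 and 1144 CPM in younger ones. Rps13 had 226 CPM there, the highest of all tumors, against 96.3 and 168 CPM in older and 113, 109.8 and 191 CPM in younger tumors. Rpl31, in contrast, had 174 CPM in tumor 102, its lowest value, against 239 and 343 CPM in the other older tumors and 283, 190.3 and 474 CPM in younger ones. Rps3a, Rps13 and Rpl31 were chosen for description here after their values had been seen, and a single library carries the pattern. Tumor 102 also had the smallest total, the largest share of mitochondrially encoded transcripts (8.42%) and the highest summed levels of adipocyte (169 CPM), fibroblast (718 CPM), macrophage (264 CPM) and endothelial (280.4 CPM) markers. It had the lowest summed levels of luminal (1122 CPM), myoepithelial (399 CPM), erythroid (29.4 CPM) and B cell (0.330 CPM) markers. The part of these in the pattern was not tested.

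Members with and without the TOP run at the annotated start had close values in these libraries. Members with the run at the annotated start (19 tested) had median deviations of 0.64 in tumor 167 and -0.48 in tumor 107, against 0.62 and -0.51 in members whose annotated start lacks it (34 tested). Their median log2 fold changes by age were -0.23 and -0.17. These are descriptions of genes in the same libraries, without a test of the difference. A run within 5 bases of the start stood in 36 of 59 member windows, against 21 at the start base itself. Some members counted as lacking it thus hold it nearby, and the values do not compare TOP messages with others.

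Other genes of the translation machinery were followed by lists, in none of which edgeR (also at an unadjusted p under 0.05), DESeq2 or limma-voom called a gene. Of 17 translation factors and other genes with TOP messages, 15 were tested and 0 were called, 9 lower and 6 higher by sign, with a median log2 fold change of -0.09. Their average deviations were -0.33 in tumor 107, -0.33 in tumor 158, 0.14 in tumor 116 and 0.44 in tumor 167, the same sides as the ribosomal proteins. In tumor 102 their average was 0.07, on the side of the small subunit genes (0.05) and opposite to the large subunit genes (-0.16). In tumor 157 it was 0.00. Eef1a1, which delivers aminoacyl-tRNA, had 9093, 6239 and 7547 CPM in older and 6193, 4889.6 and 10614 CPM in younger tumors. Tpt1, a growth-related protein with a TOP message, had 1149, 796 and 1148 CPM in older and 659, 765 and 1500.3 CPM in younger tumors. Of 7 ribosomal genes that the name rule leaves out, 5 were tested, with 0 called and a median of -0.07. Among them Rack1, a scaffold on the small subunit, had 677, 549 and 724 CPM in older and 629, 465 and 958 CPM in younger tumors. Eef1a1, Tpt1 and Rack1 were all highest in tumor 167.

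Factors that build ribosomes in the nucleolus did not stand in the order of the ribosomal proteins. Of 29 ribosome biogenesis genes, all tested, 0 were called, 21 were lower and 8 higher in older tumors by sign, and the median log2 fold change was -0.12. Their average deviations were highest in tumor 157 (0.33) and tumor 116 (0.24), lowest in tumor 102 (-0.26), and below 0 in tumor 167 (-0.11), where ribosomal proteins were highest. The methyltransferase Fbl had 22.1, 23.5 and 36.8 CPM in older and 54.3, 27.1 and 39.9 CPM in younger tumors. Nop56, of the same complex, had 21.1, 48.3 and 74.1 CPM in older and 74.4, 50.3 and 59.6 CPM in younger tumors. The 15 genes of mTORC1, LARP1 and MYC control, 14 of them tested, had 0 called, 7 lower and 7 higher by sign, and a median of 0.00. In tumor 167 their average deviation was -0.16.

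**Figure D5:**
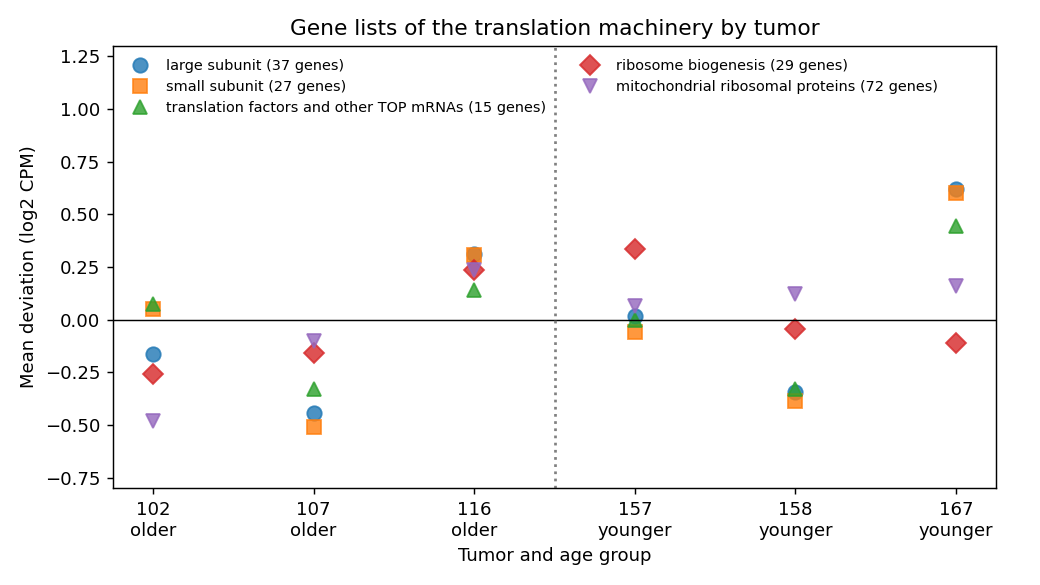
Mean difference of log2 CPM from the mean of each gene over the 6 tumors, averaged over the tested genes of 5 lists, for each tumor. Large and small subunit genes and translation factors share sides in tumors 107, 116, 158 and 167, whereas ribosome biogenesis genes are highest in tumor 157 and below 0 in tumor 167.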

How the data were processed

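Bulk RNA-seq of 6 rat mammary tumors was analysed from the read counts per gene that the authors deposited without normalization. The authors trimmed adapters with Trimmomatic, aligned reads with STAR, marked duplicates with Picard and counted reads with HTSeq 0.13.5. The submitters' processing notes name the build mRatBN7.2; the strand setting and the handling of multi-mapped reads are not given in the sources used here. Tumors were matched to columns by tumor ID, with 0 columns unused.

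Tests on these counts used edgeR 4.0.16 and, as alternatives, DESeq2 1.42.0 and limma 3.58.1, under R 4.3.3. Genes were filtered with filterByExpr by age group. The 4367 rows with an empty name hold 2.17% to 3.64% of the counts per tumor; each is a separate row of counts, so they stayed in the totals and tests (903 of the genes tested), and a fit without them is among the alternatives. CPM used the TMM-scaled totals, and log2 CPM used a prior count of 2. Standard errors were calculated back from the F statistic, and intervals used its degrees of freedom. The functions were tested on simulated data. Since the labels do not say more of each tumor than its ID and age, p-values measure the spread between these tumors.

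Members, lists and tests were chosen with earlier results of these data known. Genes with values per tumor were named for their role, as copies, or as the 3 smallest p-values per subunit; exceptions are marked. A few genes that the counts include are not reported here by name or in the plots. Alternatives were another scaling, filter or test, removal of abundant genes, leaving out each tumor and, chosen after seeing the data, adding rows named after copies and removing rows without a name. Promoters and gene names came from RefSeq GRCr8. That assembly is not the build of the counts, so its coordinates locate only the printed sequences.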

Additional observations from a re-analysis of the deposited data

How the results depend on the processing

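No paired analysis was possible because older and younger tumors carry no replicate number in common. The count of ribosomal protein genes called was 0 for both subunits under all 9 alternative fits with all 6 tumors, and also whichever tumor was left out. With 1 tumor left out, the median log2 fold change ranged from -0.47 to 0.0889 for the large and from -0.37 to 0.20 for the small subunit, and the difference in the share of counts from -0.431 to 0.0773 and from -0.269 to 0.100 percentage points. The positive medians and shares came without tumor 167 and, for the small subunit, also without tumor 107; the fits differ from the others only in the tumor removed. With all tumors the medians stayed between -0.30 and -0.21 (large) and between -0.24 and -0.12 (small), and the share differences between -0.206 and -0.164 and between -0.107 and -0.0711. Adding rows named after copies, and leaving out rows without a name (medians -0.22 and -0.12), both chosen after seeing the data, are among these.

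Of 315 values of 21 named genes, 286 kept their sign and 29 did not, 27 of the latter with a tumor left out, and 0 passed the threshold. Across those fits the log2 fold change of the 15 genes that changed sign at least once ranged from -0.51 to 0.0594 (Rpl3), -0.43 to 0.40 (Rpl5), -0.32 to 0.19 (Rpl10), -0.46 to 0.27 (Rpl11), -0.24 to 0.10 (Rplp0), -0.32 to 0.29 (Rplp1), -0.21 to 0.31 (Rplp2), -0.45 to 0.13 (Rps4x), -0.25 to 0.50 (Rps6), -0.68 to 0.14 (Rps14), -0.64 to 0.0923 (Rps15), -0.62 to 0.10 (Rps19), -0.32 to 0.29 (Rps27), -0.29 to 0.42 (Rps27a) and -0.44 to 0.0801 (Rpsa). Among genes that kept their sign it still ranged from -0.92 to -0.11 (Rpl13a), -0.60 to -0.14 (Rpl22), -0.68 to -0.0952 (Rpl27), -0.69 to -0.25 (Rpl29) and -0.74 to -0.23 (Rps27l). With all tumors, Rps6 turned to -0.0895 with library totals and Rps27a to 0.0212 with limma-voom; the cause was not tested. Library totals moved the median of all genes from 0.00 to -0.07. Depth limited the rows near 3 counts, and its effect on other rows was not tested.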

Other observations

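Mitochondrial ribosomal proteins, which serve the separate ribosome of that organelle, were tested as 72 of 75 rows. None was called by edgeR (0 at an unadjusted p under 0.05), DESeq2 or limma-voom, 56 were lower and 16 higher in older tumors by sign, and the median log2 fold change was -0.20. In 8 of them all older tumors were below all younger ones, where 5.58% of all genes tested were. Among these 8, picked for that order after values had been seen, Mrpl4 had 9.24, 14.5 and 18.8 CPM in older tumors 102, 107 and 116, and 23.4, 28.1 and 19.5 CPM in younger tumors 157, 158 and 167 (log2 fold change -0.73 ± 0.35, SE, edgeR adjusted p = 0.641). Zmat3, a p53 target that binds RNA, had 35.3, 42.8 and 39.3 CPM in older and 79.4, 78.3 and 79.6 CPM in younger tumors (log2 fold change -1.01 ± 0.21, SE, edgeR adjusted p = 0.265).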
